A study of Mus musculus with 10 samples.

Results

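The metallothioneins and the antioxidant genes under the transcription factor Nrf2 were followed through status epilepticus (SE) and levetiracetam (LEV) treatment. The 10 genes were *Mt1*, *Mt2*, *Mt3*, *Hmox1*, *Nqo1*, *Gclc*, *Gclm*, *Srxn1*, *Txnrd1* and *Slc7a11*. They were chosen by symbol from the 15900 genes with a value, and all 10 had a row and passed the filter on low values. Expression was measured by CAGE, which sequences the capped ends of transcripts, in whole hippocampi of male ICR mice. Values are tag counts scaled to the library total (CPM), and since each capped end gives 1 tag they are not scaled to gene length.

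The 5 groups held 2 mice each, injected at 9 to 10 weeks of age. Pre-SE mice are labelled untreated, and by the study's methods they received saline in place of pilocarpine (PILO). SE 6 h and SE 2 days mice were given PILO after methyl scopolamine, had convulsive seizures that met the criterion for SE, received diazepam to end them, and were sampled 6 h or 2 days later. SE + LEV 6 h and SE + LEV 2 days mice were treated in the same way and were also given oral LEV, 1 time and 5 times before sampling. Whether pre-SE mice also received diazepam is not given separately in the methods, and the effect of SE cannot be told apart from that of the drugs. The libraries held 10540698 to 51710968 tags, so that 3 tags were worth 0.058 to 0.285 CPM. The filter on low values was set at 0.1 CPM in at least 2 libraries, not in tags. The samples expressed general neuronal markers, whose summed level ran from 2910 to 4962 CPM over the 10 libraries, and these do not tell hippocampus from other brain regions.

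Nrf2, encoded by *Nfe2l2*, is held in the cytoplasm by Keap1 and degraded there. Oxidants and electrophiles release it, and with a small Maf protein it then binds antioxidant response elements in the promoters of genes for glutathione synthesis, thioredoxin recycling, haem breakdown and quinone reduction. Bach1 competes for the same elements. Metallothioneins are small cysteine-rich proteins that bind zinc and copper. *Mt1* and *Mt2* are induced by metals, through the factor Mtf1 at metal response elements, and by glucocorticoids and inflammation, and in brain they are known mainly from astrocytes, while *Mt3* is the brain form, also found in neurons.

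The sequences before 3 annotated starts are shown because they hold matches to motifs named below. Windows from 250 bases before to 50 bases after the start came from RefSeq on GRCm38.p6. *Hmox1* and *Gclc* had none, and the other 8 genes had 10 windows, 3 of them for *Txnrd1*. Both strands were searched for the antioxidant response element TGACNNNGC (ARE), the metal response element core TGCACNC or TGCGCNC (MRE) and the AP-1 site TGANTCA. Of all 32851 windows, 12.4% held an ARE match, 25.7% an MRE match and 7.81% an AP-1 match. Capitals mark the matches to any of these motifs in the 250 bases before the start, read 5′ to 3′ on the gene's strand.
*Srxn1*, chr2:152105274-152105523, plus strand: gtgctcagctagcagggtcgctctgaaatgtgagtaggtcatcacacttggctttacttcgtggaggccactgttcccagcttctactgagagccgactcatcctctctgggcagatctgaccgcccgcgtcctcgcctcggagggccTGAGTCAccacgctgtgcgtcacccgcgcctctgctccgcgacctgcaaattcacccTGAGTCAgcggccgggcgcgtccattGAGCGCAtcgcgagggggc
*Gclm*, chr3:122245307-122245556, plus strand: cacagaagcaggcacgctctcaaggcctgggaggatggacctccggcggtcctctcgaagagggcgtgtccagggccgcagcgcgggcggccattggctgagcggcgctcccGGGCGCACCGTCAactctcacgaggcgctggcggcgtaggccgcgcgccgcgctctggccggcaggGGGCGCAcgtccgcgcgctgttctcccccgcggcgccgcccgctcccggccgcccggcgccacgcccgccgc
*Mt2*, chr8:94172368-94172617, plus strand: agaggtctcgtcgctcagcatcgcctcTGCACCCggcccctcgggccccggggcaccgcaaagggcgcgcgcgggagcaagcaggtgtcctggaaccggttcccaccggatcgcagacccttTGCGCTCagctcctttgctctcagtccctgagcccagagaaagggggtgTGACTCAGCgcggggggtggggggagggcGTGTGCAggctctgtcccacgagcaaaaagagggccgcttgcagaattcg

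The *Srxn1* window held AP-1 matches that begin 102 and 45 bases before the start, an MRE match 19 bases before it and an ARE match 28 bases after it. At least 2 AP-1 matches were present in 0.46% of all windows. The *Mt2* window held 4 MRE matches, 3 of them before the start and shown above, a number reached by 0.517% of windows. Its ARE match, 79 bases before the start, shares its first 7 bases with an AP-1 match. *Mt1* had 3 MRE matches, of which 1 lay before the annotated start, and *Mt3* had 1, after the start. *Gclm* had 1 ARE match that overlaps an MRE match, and 3 MRE matches in all. The second *Txnrd1* window had 1 ARE match, and the windows of *Nqo1* and *Slc7a11* and the other two of *Txnrd1* had no match to any of the motifs. These are matches of letters, and binding was not measured.

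**Figure D1:**
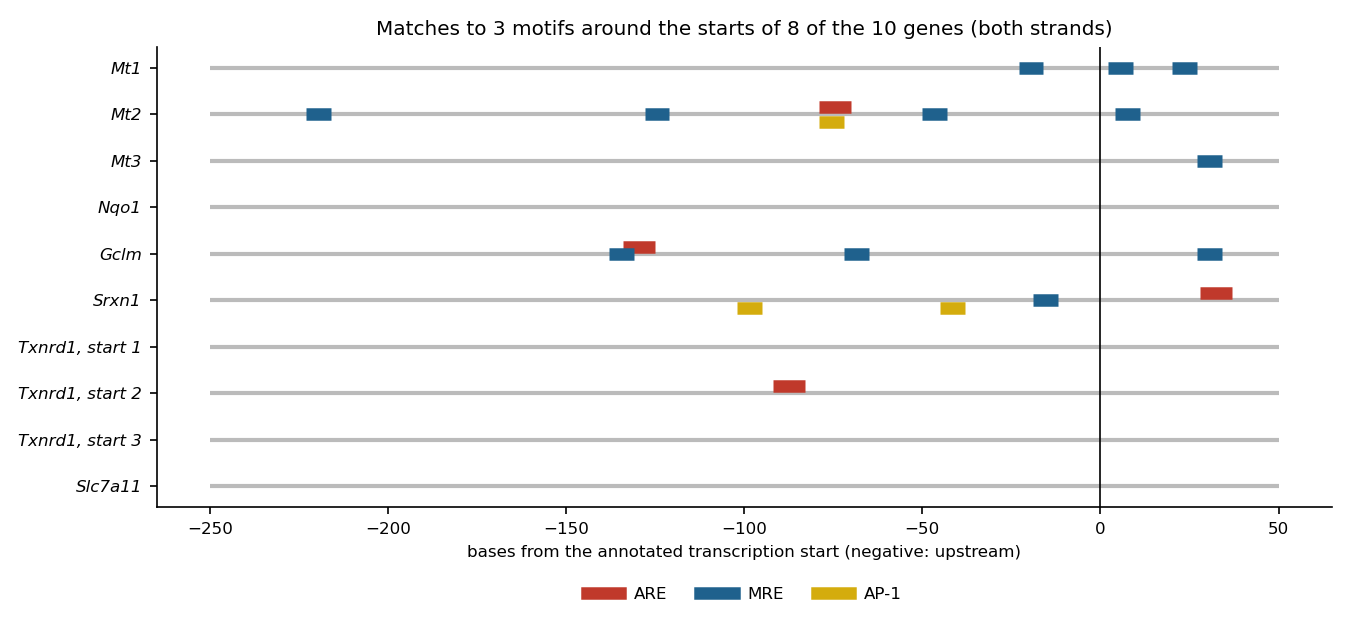
Matches to the ARE, MRE and AP-1 motifs in the windows of the 8 genes that had one. The horizontal axis gives bases from the annotated start, grey lines are the windows of 300 bases, and coloured bars are matches on either strand. *Mt2* carries 4 MRE matches and *Srxn1* carries 2 AP-1 matches, while 4 windows carry none.

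After SE, *Hmox1*, *Srxn1* and *Slc7a11* rose within 6 h, and *Hmox1* was still raised at 2 days. *Hmox1* (heme oxygenase 1, which breaks down haem) was 5.86 times its pre-SE mean at 6 h and 5.36 times at 2 days. *Srxn1* (sulfiredoxin, which restores overoxidized peroxiredoxins) was 4.89 times its pre-SE mean at 6 h, and *Slc7a11* (the cystine/glutamate antiporter, which imports cystine for glutathione) was 3.98 times. *Mt1* and *Mt2* had means 2.94 to 5.83 times those of pre-SE mice at both times, but neither passed the test over all genes. *Gclm*, the modifier subunit of the enzyme that makes the glutathione precursor, stayed between 39.9 and 57.51 CPM in all 10 mice.

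The comparison of SE with pre-SE mice asks which genes differ after SE and the drugs given with it. With limma on log2(CPM + 0.1), 3 of the 10 genes were called higher at 6 h, at an adjusted p of at most 0.05 over 15851 genes, where 2.76% of all genes tested were called higher. None was called lower, against 0.202% of all genes. At 2 days 1 of the 10 was called higher, where 5.07% of all genes were, and 0 lower, where 0.593% were. An unadjusted p under 0.05 was reached by 6 of the 10 at 6 h and 5 at 2 days, all higher. Of all 15851 genes tested, 1460 were higher and 1349 lower at that p at 6 h, and 1977 and 1155 at 2 days. The median difference of the 10 genes (logFC, on the log2(CPM + 0.1) scale) was 1.25 at 6 h and 0.56 at 2 days, beside −0.13 and −0.03 over all genes tested. Median-of-ratios rescaling moved the all-gene median at 6 h to −0.0045. The median of the 10 genes at 6 h was 0.90 without SE 6 h replicate 2 and 1.54 without SE 6 h replicate 1.

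*Hmox1* (ENSMUSG00000005413, mm9 chromosome 8 from 77617490 to 77624495) is a standard marker of oxidative and haem stress. Its level was 5.72 and 4.89 CPM before SE, 35.76 and 26.38 at 6 h and 30.06 and 26.75 at 2 days. Every SE mouse without LEV was above both pre-SE mice, and the SE 6 h and SE 2 days mice overlapped. The logFC was 2.52 ± 0.38 (standard error, n = 2 per group) at 6 h, with a limma adjusted p of 0.0075, and 2.40 ± 0.38 at 2 days, with an adjusted p of 0.0051. The call at 2 days held when any of the 4 mice was left out, with adjusted p between 0.0319 and 0.0473. The call at 6 h was lost without pre-SE replicate 2 (adjusted p = 0.0526) and without SE 6 h replicate 1 (adjusted p = 0.0585), with a logFC of 2.41 and 2.30.

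*Srxn1* (ENSMUSG00000032802, chromosome 2 from 151931252 to 151937112) had the highest CPM of the genes other than metallothioneins in all 10 libraries. It stood at 110.19 and 59.1 CPM before SE, 502.05 and 325.74 at 6 h and 130.63 and 246.07 at 2 days. Both SE 6 h mice were above every SE 2 days mouse and both SE 2 days mice exceeded the pre-SE mice. Its logFC in SE was 2.32 ± 0.41 at 6 h (limma adjusted p = 0.0149) and 1.15 ± 0.41 at 2 days (adjusted p = 0.145). The 6 h call was lost without pre-SE replicate 2 (adjusted p = 0.107), SE 6 h replicate 1 (0.0945) or SE 6 h replicate 2 (0.0565). From 6 h to 2 days the logFC was −1.17 ± 0.41, with an adjusted p of 0.148.

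*Slc7a11* (ENSMUSG00000027737, chromosome 3 from 50168858 to 50247535, minus strand) had a rise seen at 6 h. Its CPM was 13.31 and 24.13 before SE, 62.26 and 86.61 at 6 h and 31.33 and 16.33 at 2 days. The SE 6 h mice stood above all the others named here, and the SE 2 days mice overlapped the pre-SE mice. The logFC was 2.03 ± 0.44 at 6 h (limma adjusted p = 0.0367) and 0.33 ± 0.44 at 2 days. The 6 h call rested on all 4 mice, since leaving out any of them (pre-SE replicate 1 or 2, SE 6 h replicate 1 or 2) gave an adjusted p of 0.0576 to 0.246. Between SE 2 days and SE 6 h mice the logFC was −1.69 ± 0.44 (adjusted p = 0.061), and it passed the test under median-of-ratios rescaling (adjusted p = 0.0461) and in a fit of these groups alone (0.0321).

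*Txnrd1* (ENSMUSG00000020250, chromosome 10 from 82296696 to 82360469) encodes the cytosolic thioredoxin reductase. It was at 46.83 and 54.48 CPM before SE, 78.2 and 105.93 at 6 h and 67.03 and 88.17 at 2 days. All SE mice without LEV exceeded the pre-SE mice. The logFC of 0.85 ± 0.27 at 6 h and 0.61 ± 0.27 at 2 days did not pass the test over all genes (limma adjusted p = 0.144 and 0.249).

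*Gclc* (ENSMUSG00000032350, chromosome 9 from 77602342 to 77642292) and *Gclm* (ENSMUSG00000028124, chromosome 3 from 121948475 to 121972902) encode the catalytic and modifier subunits of glutamate-cysteine ligase. *Gclm* was at 39.9 and 51.9 CPM before SE, 51.13 and 45.29 at 6 h and 43.8 and 57.51 at 2 days, and these groups overlapped. Its logFC was 0.08 at 6 h (95% confidence interval −0.48 to 0.64) and 0.14 at 2 days (−0.42 to 0.70). *Gm17494* overlaps *Gclm* on the other strand, and whether tags were counted by strand is not given in the sources used here. *Gclc* was at 43.94 and 16.63 CPM before SE, 43.4 and 25.21 at 6 h and 20.95 and 20.16 at 2 days. Its groups also overlapped, with wide intervals of −1.26 to 1.84 around a logFC of 0.29 at 6 h and −1.94 to 1.16 around −0.39 at 2 days. The *Gclc* to *Gclm* ratio within a library ran from 0.26 to 2.05, the lowest and highest both in LEV-treated mice, so the subunit genes did not keep 1 proportion.

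*Nqo1* (ENSMUSG00000003849, chromosome 8 from 109912125 to 109927106, minus strand) encodes a quinone reductase often used as a readout of Nrf2. It had the lowest level of the 10 genes, 2.17 and 2.65 CPM before SE, 2.18 and 3.63 at 6 h and 1.95 and 1.05 at 2 days. Only 22 to 137 tags per library lay behind these and the LEV values. Both SE 2 days mice were below both pre-SE mice, and the SE 6 h and pre-SE mice overlapped. The logFC was 0.22 (95% confidence interval −0.75 to 1.2) at 6 h and −0.70 (−1.68 to 0.27) at 2 days, neither of which passed the test (limma adjusted p = 0.83 and 0.429).

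**Figure D2:**
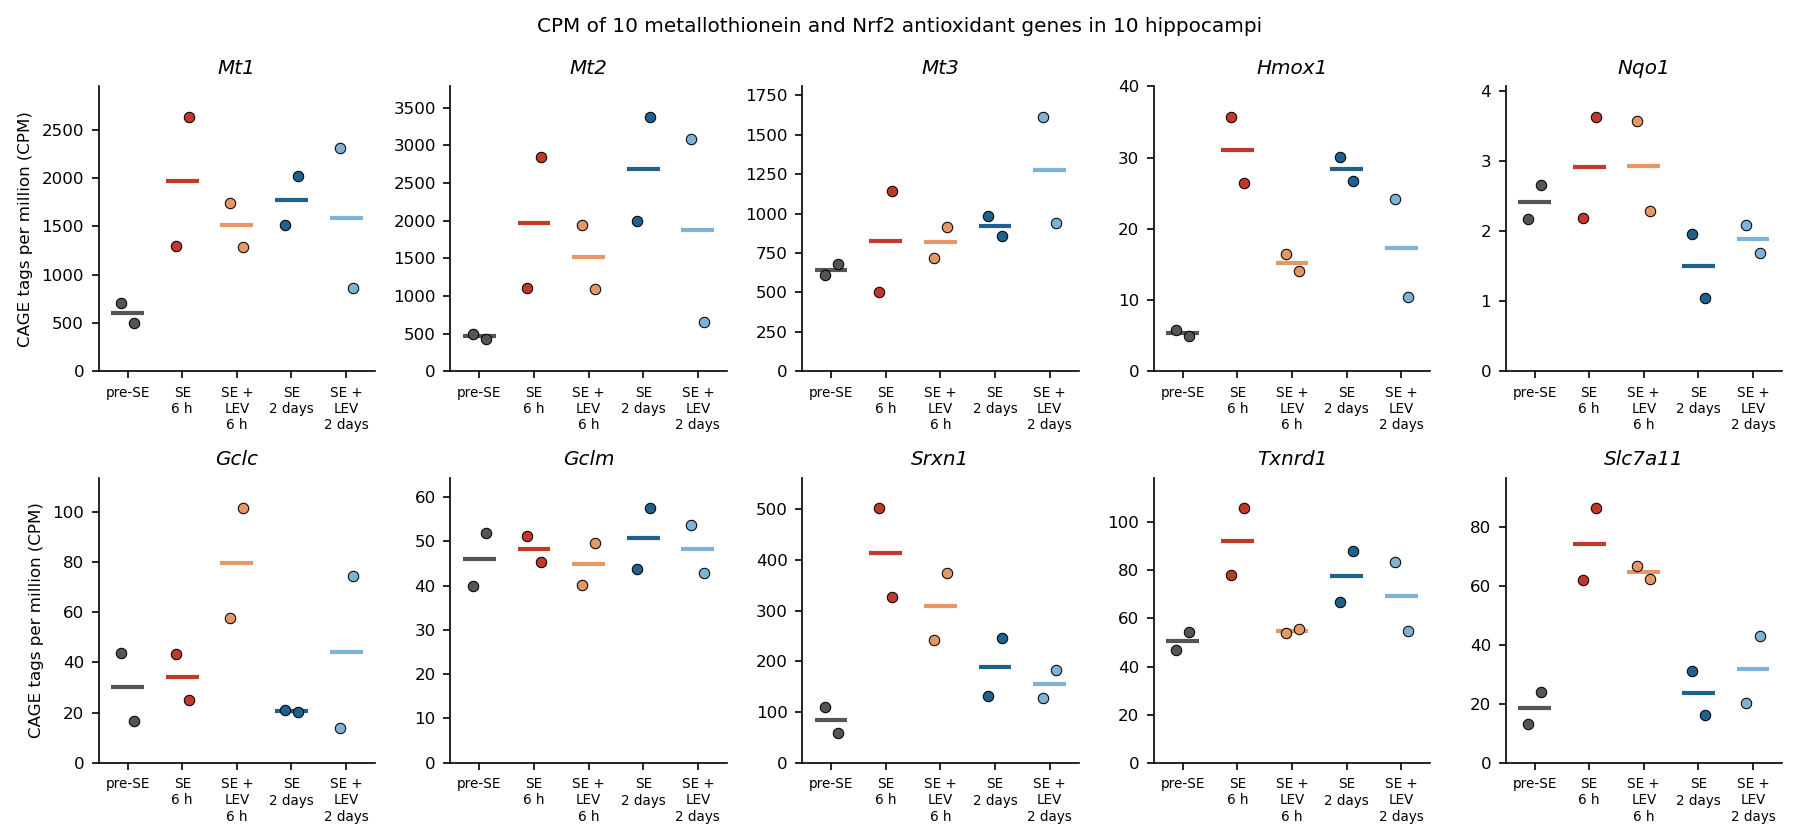
CPM of the 10 genes in each of the 10 mice, on linear axes that start at 0 and differ between panels. Points are mice and bars are the means of the 2 mice of a group. *Hmox1* lies between 4.89 and 5.72 CPM in pre-SE mice and at 10.43 CPM or more in all others, and *Gclm* lies between 39.9 and 57.51 CPM throughout.

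The metallothionein genes lie side by side on chromosome 8 of mm9, *Mt3* (ENSMUSG00000031760) from 96676507 to 96678048, *Mt2* (ENSMUSG00000031762) from 96696518 to 96697467 and *Mt1* (ENSMUSG00000031765) from 96702989 to 96704225, within 27718 bases. They have similar coding sequences, and how tags that match more than 1 of them were treated is not given in the sources used here. *Mt1* was at 705.55 and 495.25 CPM before SE, 1292.16 and 2634.81 at 6 h and 1511.4 and 2023.07 at 2 days. *Mt2* was at 496.31 and 426.2, at 1101.99 and 2844.75, and at 1995.48 and 3383.05 CPM in the same groups. For both genes every SE mouse without LEV exceeded the pre-SE mice, and SE 6 h replicate 2 had over 2 times the level of replicate 1.

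For *Mt1* the logFC was 1.64 ± 0.49 at 6 h and 1.57 ± 0.49 at 2 days (limma adjusted p = 0.12 and 0.099). For *Mt2* it was 1.95 ± 0.68 and 2.50 ± 0.68 (adjusted p = 0.18 and 0.062). In a fit of SE 2 days and pre-SE mice alone, both passed at 2 days, with an adjusted p of 0.0222 for *Mt1* and 0.00397 for *Mt2*. Within a library, *Mt2* was 0.703 and 0.861 times *Mt1* in pre-SE mice, 0.853 and 1.08 times in SE 6 h mice and 1.32 and 1.67 times in SE 2 days mice. Both SE 2 days ratios were above those of all pre-SE and SE 6 h mice. *Mt3* was at 608.77 and 679.76 CPM before SE, 504.3 and 1142.48 at 6 h and 982.9 and 859.58 at 2 days. The SE 6 h values of *Mt3* spanned those of pre-SE mice, the SE 2 days values were above them, and the logFC was 0.24 ± 0.39 and 0.51 ± 0.39 (adjusted p = 0.79 and 0.535).

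The hippocampi differed in *Ttr*, the transthyretin gene that marks choroid plexus. *Ttr* was 5.83 and 1667.87 CPM before SE, 4.33 and 3935.71 at 6 h and 55.59 and 13.52 at 2 days. With LEV it was 843.42 and 29.98 CPM at 6 h and 1475 and 18.89 at 2 days. Of the 4 choroid plexus markers chosen, *Ttr* and *Kl* had a row, and their summed level ran from 7.99 to 3959 CPM. In the SE 6 h, SE + LEV 6 h and SE + LEV 2 days groups the mouse with the higher *Ttr* also had the higher *Mt1* and *Mt2*, whereas in the pre-SE and SE 2 days groups it had the lower. Both SE 2 days mice had *Ttr* under 100 CPM and *Mt2* at 1995.48 CPM or more. In a fit without the 4 libraries with *Ttr* above 500 CPM, an alternative chosen after the data were seen that left 1 residual degree of freedom, the logFC of *Mt1* at 6 h was 0.87 and that of *Mt2* was 1.15. That fit kept both SE 2 days mice and 1 mouse of every other group, so its 1 residual degree of freedom came from the SE 2 days mice alone. In it *Mt2* at 2 days had a logFC of 2.39, *Hmox1* had 2.62 at 6 h and 2.29 at 2 days, and *Srxn1* and *Slc7a11* had 2.19 and 2.22 at 6 h. The 3 genes called at 6 h were not called in it, and its tests hold no spread among pre-SE or SE 6 h mice. The part of choroid plexus in the metallothionein levels was not tested.

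**Figure D3:**
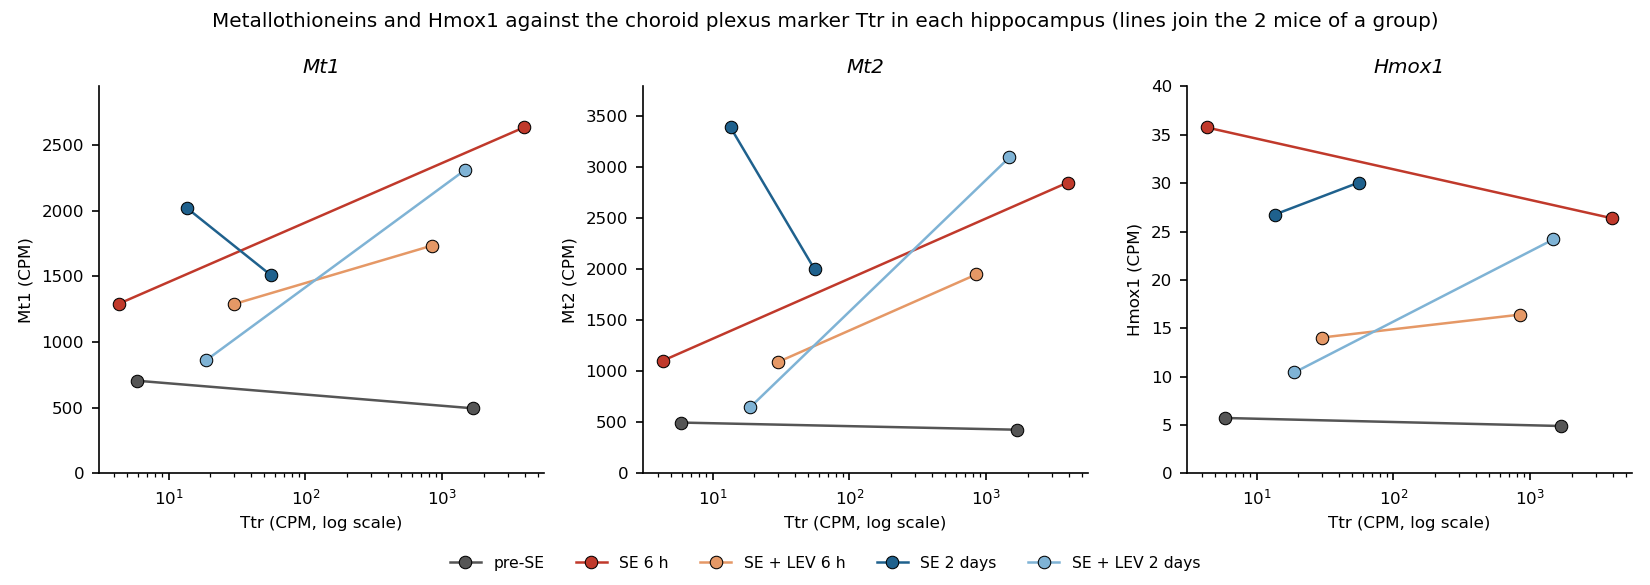
*Mt1*, *Mt2* and *Hmox1* (CPM, linear axes from 0) against *Ttr* (CPM, log axis) in the 10 hippocampi, with a line between the 2 mice of each group. The lines for *Mt1* and *Mt2* climb with *Ttr* in 3 groups, and the SE 2 days mice have high *Mt2* at 13.52 and 55.59 CPM of *Ttr*.

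Cell markers also differed. In bulk tissue fewer cells of a type and less RNA per cell cannot be told apart. The 6 astrocyte markers summed to 2165 and 2252 CPM before SE, 1988 to 2466 at 6 h and 3459 to 4856 at 2 days. Of them *Gfap* and *Aqp4* were called higher at 2 days (logFC 3.60 and 1.57) and none at 6 h. At 2 days 3 of the 6 had higher estimates and 3 lower, with none called lower. *Gfap* went from 245.62 and 230.22 CPM before SE to 2281.84 and 3642.11 at 2 days. *Slc1a2* went from 1546.8 and 1484.23 to 786.25 and 808.71 CPM, and *Slc1a3* from 353.26 and 370.5 to 241.84 and 197.83. Of 5 markers chosen for monocytes and macrophages, *Ccr2* had no row. The other 4 summed to 8.02 and 9.24 CPM in pre-SE mice, 29.19 and 29.81 at 6 h and 102.1 and 128.4 at 2 days, with 2 called higher at 6 h and 3 at 2 days. Most of the sum at 2 days came from *Cd68* (59.23 and 68.87 CPM) and *Msr1* (37.78 and 53.25). Whether these markers tell monocytes and macrophages from microglia was not tested. The 5 microglial markers summed to 147.9 and 156 CPM in pre-SE mice, 68.59 and 79.06 at 6 h and 273.8 and 288.8 at 2 days. Of them 2 were called lower at 6 h and 1 higher at 2 days. All 5 had lower estimates at 6 h, and 4 had higher estimates at 2 days. The exception at 2 days was *P2ry12*, at 41.45 and 26.88 CPM in pre-SE mice and 18.06 and 16.91 at 2 days. *Hbb-b1*, the 1 red blood cell marker of 3 with a row, was at 17.14 and 18.7 CPM in pre-SE mice and between 2.08 and 10.28 CPM in all others. The 4 endothelial markers summed to 34.94 and 37.75 CPM in pre-SE mice, 68.93 and 83.25 at 6 h and 57.31 and 78.57 at 2 days, and *Cdh5* was called higher at 6 h (logFC 2.10, limma adjusted p = 0.0061). At 6 h 3 of the 4 had higher estimates, and *Tek* was lower, at 3.17 and 2.96 CPM in pre-SE mice and 2.41 and 1.71 at 6 h. At 2 days all 4 had higher estimates, with none called. The 4 oligodendrocyte markers summed to 4152 and 4745, 2886 and 5670, and 1530 and 2307 CPM in the same groups, with none called. The 4 neuronal markers summed to 4638 and 4962, 3386 and 4653, and 2910 and 3598 CPM in these groups. All 4 had lower estimates than in pre-SE mice at both times, with none called. The part of these cells in the levels of *Hmox1*, *Mt1* and *Mt2* was not tested.

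LEV was compared with SE alone at the same time, which asks whether the drug changes the response. At 6 h 0 of the 10 genes were called higher or lower, where 0% of all genes were called higher and 0.0126% lower. *Hmox1* and *Txnrd1* reached an unadjusted p under 0.05, both lower, where 542 of the 15851 genes tested were lower and 184 higher. *Hmox1* was at 16.41 and 14.04 CPM in SE + LEV 6 h mice, below both SE 6 h mice and above both pre-SE mice. Its logFC was −1.01 ± 0.38 (limma adjusted p = 0.95). The monocyte and macrophage markers summed to 14.89 and 16.65 CPM in these mice, also below the SE 6 h mice and above the pre-SE mice. Of them *Cd68* (10.57 and 8.82 CPM) and *Msr1* (2.13 and 1.42) were below both SE 6 h mice. *Mrc1* (3.29 and 3.51 CPM) and *Ms4a7* (0.66 and 1.14) overlapped the SE 6 h mice. The 5 microglial markers summed to 95.44 and 119.6 CPM, above both SE 6 h mice and below both pre-SE mice, and all 5 had higher estimates than in SE 6 h mice. The 4 endothelial markers summed to 50.83 and 75.32 CPM, overlapping the SE 6 h mice, with 1 estimate higher and 3 lower. None of these markers was called between SE + LEV 6 h and SE 6 h mice. The part of any of these cells in the *Hmox1* level was not tested. *Txnrd1* was at 53.96 and 55.69 CPM, below both SE 6 h mice and close to the pre-SE mice, with a logFC of −0.73 ± 0.27 (adjusted p = 0.95). The median logFC of the 10 genes was −0.23, beside 0.04 over all genes, and it was 0.13 without SE 6 h replicate 2, whose metallothioneins were the highest of the 4 mice compared, and −0.46 without SE 6 h replicate 1.

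*Srxn1* and *Slc7a11* stayed high with LEV at 6 h. *Srxn1* was at 242.82 and 373.31 CPM and *Slc7a11* at 67.02 and 62.61 CPM, both overlapping the SE 6 h mice. Against pre-SE mice their logFC in SE + LEV 6 h mice was 1.90 ± 0.41 and 1.85 ± 0.44 (limma adjusted p = 0.109 and 0.152), and neither group overlapped the pre-SE mice. *Gclc* was at 57.81 and 101.61 CPM, above all SE 6 h and pre-SE mice, with a logFC against SE 6 h of 1.21 and a 95% confidence interval of −0.34 to 2.76. *Mt1* was at 1735.32 and 1288.91 CPM and *Mt2* at 1945.15 and 1088.07, with logFC of −0.30 (−1.38 to 0.78) and −0.28 (−1.79 to 1.23) against SE 6 h. The values of *Mt3* were 719.89 and 913.13 CPM, those of *Gclm* 40.07 and 49.52 and those of *Nqo1* 3.56 and 2.28, and all 3 genes overlapped the SE 6 h mice.

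At 2 days 0 of the 10 genes were called, where 0% of all genes were called in either direction. At an unadjusted p under 0.05, 0 of the 10 passed, where 208 of the 15851 genes tested were higher and 220 lower. *Hmox1* was at 24.19 and 10.43 CPM in SE + LEV 2 days mice, both below the SE 2 days mice and above the pre-SE mice. Its logFC was −0.83 ± 0.38 (limma adjusted p = 1), and it ranged from −1.43 to −0.23 as single mice were left out, −0.23 being the value without SE + LEV 2 days replicate 2. The mice of this group differed in several of the genes. Replicate 1 had 2313.23 CPM of *Mt1* and 3090.88 of *Mt2*, and replicate 2 had 862.99 and 648.71. For *Gclc* replicate 1 was at 13.97 CPM, the lowest of all 10 libraries, and replicate 2 at 74.55. With these mice the logFC of *Mt1* against SE 2 days was −0.31 (−1.39 to 0.77) and that of *Mt2* −0.88 (−2.39 to 0.64). Without replicate 2 they were 0.40 and 0.25, and without replicate 1 they were −1.02 and −2.0. The same mice differed in markers of monocytes and macrophages, with 56.42 and 3.45 CPM of *Msr1* and 74.3 and 33.1 of *Cd68*, and in *Ttr*, as given above.

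The other genes at 2 days with LEV were *Srxn1* at 127.22 and 182.41 CPM, *Slc7a11* at 20.25 and 43.25, *Txnrd1* at 83.62 and 54.87, *Mt3* at 1614.99 and 937.37, *Gclm* at 53.72 and 42.76 and *Nqo1* at 2.08 and 1.68. All of them overlapped the SE 2 days mice. The difference between the LEV effects at 2 days and 6 h, tested as an interaction, was called for 0 of the 10 genes. Of all genes 0% were called. At an unadjusted p under 0.05, 0 of the 10 passed, where 251 of the 15851 genes tested were higher and 126 lower.

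**Figure D4:**
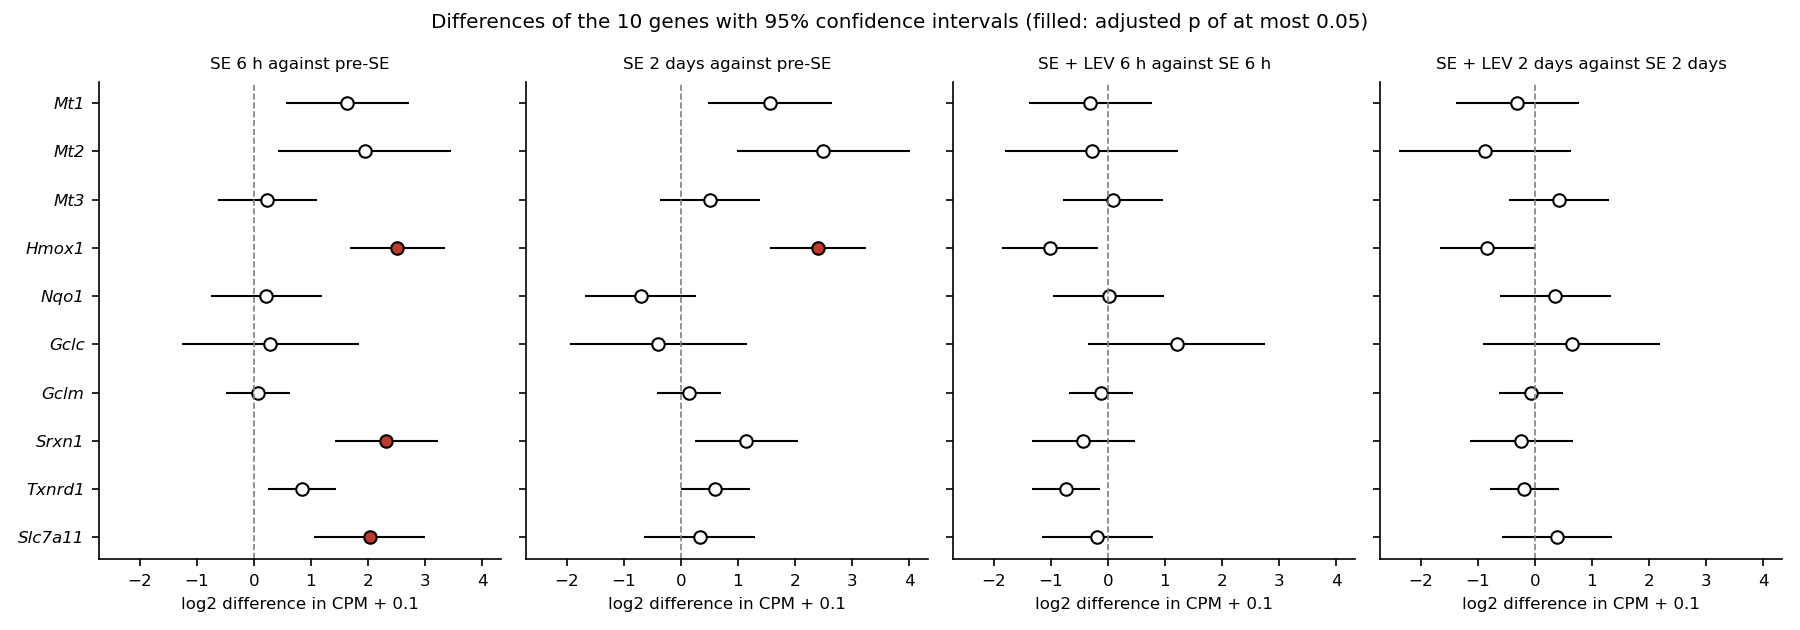
logFC of the 10 genes (log2 difference in CPM + 0.1) for SE against pre-SE and for SE + LEV against SE at each time, with 95% confidence intervals from limma. Filled points have an adjusted p of at most 0.05. *Hmox1*, *Srxn1* and *Slc7a11* are filled at 6 h and *Hmox1* at 2 days, and no point is filled for LEV.

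Set against pre-SE mice, the LEV-treated mice had 0 of the 10 genes called at 6 h, where 0.315% of all genes were called higher and 0.00631% lower. At 2 days 0 were called, where 2.83% were called higher and 0.0189% lower. Of the 10, 5 reached an unadjusted p under 0.05 at each time, all higher. Of all 15851 genes tested, 876 were higher and 611 lower at that p at 6 h, and 1404 and 303 at 2 days. *Hmox1* came closest at 2 days, with a logFC of 1.57 ± 0.38 (limma adjusted p = 0.060), and it had 1.5 ± 0.38 at 6 h (adjusted p = 0.18). Without SE + LEV 2 days replicate 2, *Hmox1* had 2.17 (adjusted p = 0.0063) and *Mt2* had 2.75 (adjusted p = 0.028), and both were called. With all mice *Mt2* had 1.66 ± 0.68 and 1.62 ± 0.68, and *Mt1* 1.34 ± 0.49 and 1.26 ± 0.49. *Srxn1* and *Slc7a11* at 2 days had 0.92 and 0.72. These comparisons share the pre-SE mice with those of SE.

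Between the times, 0 of the 10 genes were called in SE 2 days against SE 6 h mice. Of all genes tested, 3.14% were called higher there and 1.11% lower. At an unadjusted p under 0.05, 2 were lower, *Srxn1* and *Slc7a11*, where 2026 of the 15851 genes tested were higher and 1155 lower. In LEV-treated mice 0 were called between 2 days and 6 h, where 2.06% of all genes were higher and 0.0757% lower. The same 2 genes were lower at an unadjusted p under 0.05, where 1461 of all genes tested were higher and 428 lower. *Nqo1* at 2 days was below both SE 6 h mice without LEV (logFC −0.93 ± 0.44, limma adjusted p = 0.272).

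Genes whose pattern over the 10 libraries was most like that of 3 of the genes were taken from 11972 genes with a mean of at least 5 CPM, by Pearson's r of log2(CPM + 0.1). The libraries fall into 5 groups of 2 mice and are not independent points, so r is a description. *Mt1* was most like *Mt2* (r = 0.97), then *Angptl4* (0.95) and *Rhoj* (0.94). *Hmox1* was most like *Ccl4* (0.99), *Myh9* (0.97) and *Cd14* (0.97). *Srxn1* was most like *Cgref1* (0.98), *Rgs7* (0.98) and *Fbxo30* (0.97). Among the 10 genes, *Mt1* and *Hmox1* had r = 0.85 and *Gclc* and *Gclm* had r = −0.48.

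The other genes of these pathways were taken as 7 lists of 62 genes with a row, tested in 63 rows because *Mafg* has 2 identifiers. Among the 63 rows, 5 passed the test at 6 h and 7 at 2 days, all of them higher, where 2.76% and 5.07% of all genes tested were called higher. The median logFC was −0.05 at 6 h and 0.25 at 2 days, beside −0.13 and −0.03 over all genes. Of the 5 at 6 h, 3 were regulators. *Maff*, a small Maf partner of Nrf2 and Bach1, was at 1.03 and 0.52 CPM in pre-SE mice, 45.96 and 40.84 at 6 h and 10.35 and 8.6 at 2 days, with a logFC of 5.70 and 3.51 (limma adjusted p = 0.0014 and 0.0028). *Bach1*, the repressor of *Hmox1*, went from 11.62 and 13.75 CPM to 41.02 and 42.41 at 6 h and 33.45 and 37.35 at 2 days, with a logFC of 1.71 and 1.48 (adjusted p = 0.0064 and 0.0074). *Mafk* rose at 6 h from 13.69 and 11.91 to 40 and 41.11 CPM (logFC 1.66, adjusted p = 0.047).

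*Nfe2l2* itself was at 11.93 and 15.53 CPM in pre-SE mice, 17.32 and 15.35 at 6 h and 28.07 and 25.89 at 2 days, and *Keap1* at 46.56 and 53.08, 30.18 and 28.3, and 43.97 and 34.1 CPM. Neither was called (limma adjusted p of 0.76 and 0.17 for *Nfe2l2*, 0.15 and 0.48 for *Keap1*), and both are named beside the rule as the sensor and the factor of the pathway. The regulators had 3 of 10 rows called higher at 6 h and 2 at 2 days, beside the same 2.76% and 5.07% of all genes, which also stand beside the counts of the other lists.

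Of 12 genes of glutathione synthesis and use, 0 were called at 6 h and 2 higher at 2 days. These were *Gpx1*, a glutathione peroxidase (98.15 and 147.34 CPM in pre-SE mice, 328.25 and 363.38 at 2 days, logFC 1.52, limma adjusted p = 0.035), and *Mgst1*, a microsomal glutathione transferase (5.97 and 6.28 against 18.83 and 16.91 CPM, logFC 1.53, adjusted p = 0.012). None of 8 thioredoxin and peroxiredoxin genes was called. The one that differed most was *Txn1* at 2 days, with a logFC of 1.37 (adjusted p = 0.058). Of 12 genes of NADPH supply and detoxification, *Ugdh*, which makes UDP-glucuronate, was called higher at 2 days (26.31 and 24.79 against 49.48 and 75.23 CPM, logFC 1.25, adjusted p = 0.018). None of the 4 genes for removal of superoxide and peroxide was called, and *Cat* differed most, with a logFC of −0.74 at 6 h (adjusted p = 0.17).

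Of 10 genes of haem and iron handling, 2 were called higher at each time. *Blvrb*, a biliverdin reductase downstream of heme oxygenase, was called at 6 h (8.55 and 11.02 CPM in pre-SE mice, 24.83 and 31.45 at 6 h, logFC 1.52, limma adjusted p = 0.034). *Ftl1*, the ferritin light chain, was called at 2 days (28.94 and 36.94 against 67.54 and 81.63 CPM, logFC 1.18, adjusted p = 0.012). *Lcn2*, lipocalin 2, which binds iron-loaded siderophores and is also an acute phase gene, went from 0.24 and 0.27 CPM to 9.81 and 14.66 at 6 h and 20.56 and 30.14 at 2 days (logFC 5.09 and 6.14, adjusted p = 0.012 and 0.0030). None of 7 zinc and metal genes was called. The largest difference was that of *Slc30a1*, the zinc exporter of the cell membrane, at 6 h (logFC 1.07, adjusted p = 0.088). With LEV against SE, 0 of the 63 rows were called at either time.

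Leaving out 1 mouse kept the calls of *Maff* at both times and of *Lcn2* at 2 days. Whichever of the 4 mice was left out (pre-SE replicates 1 and 2 and replicates 1 and 2 of the SE group compared), *Mafk* lost its call (adjusted p = 0.149 to 0.238), as did *Blvrb* (0.088 to 0.234), *Gpx1* (0.0587 to 0.249), *Mgst1* (0.0586 to 0.0948) and *Lcn2* at 6 h (0.0548 to 0.108). *Bach1* lost its call without pre-SE replicate 1 (adjusted p = 0.0608 at 6 h and 0.0755 at 2 days), without SE 6 h replicate 2 at 6 h (0.0578) and without SE 2 days replicate 2 at 2 days (0.0786). *Ftl1* lost its call without pre-SE replicate 1 (0.125) or SE 2 days replicate 2 (0.128), and *Ugdh* without these (0.0963 and 0.184) or pre-SE replicate 2 (0.0981).

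**Figure D5:**
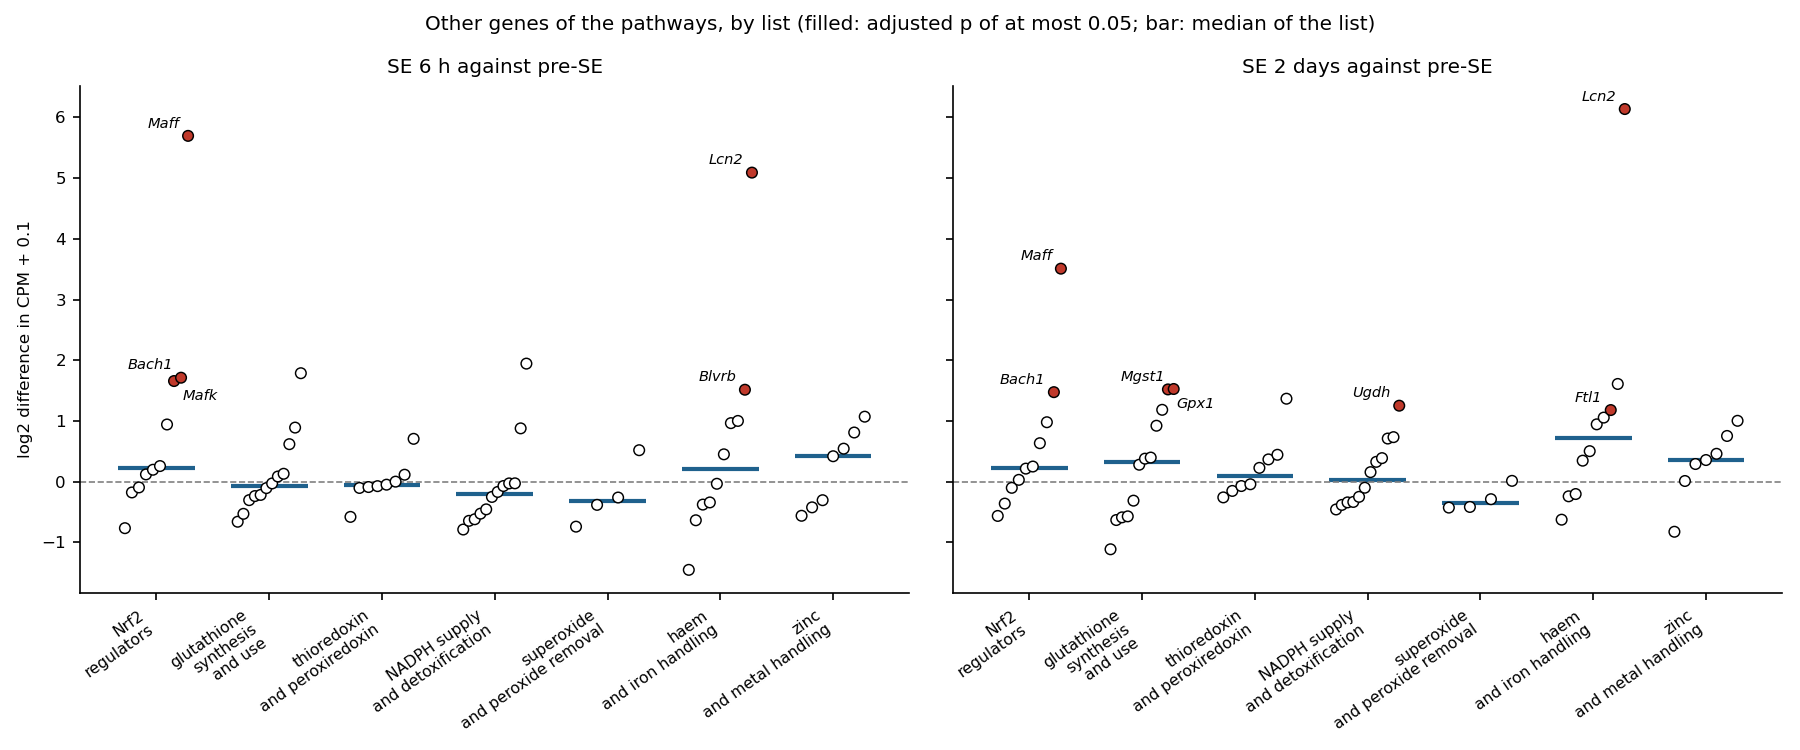
logFC of the other pathway genes at 6 h and 2 days against pre-SE, by list (log2 difference in CPM + 0.1). Points are genes, filled where the adjusted p is at most 0.05, and bars are list medians. The 5 filled points at 6 h and 7 at 2 days all lie above 0, led by *Maff* and *Lcn2*.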

How the data were processed

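CAGE tags of 10 hippocampi were mapped by the authors to mm9 with BWA 0.7.17 and HISAT2 2.0.5 and clustered with RECLU, clusters under 0.1 CPM being discarded, and the deposited values are CPM per gene and mouse. How clusters were summed to genes and whether strand was used is not given in the sources used here. Tag totals were recovered from the CPM steps, with 100% of values whole within 0.005 CPM.

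Groups came from the labels. Genes that reached 0.1 CPM in fewer than 2 libraries were left out, and log2(CPM + 0.1) of the other 15851 was tested with limma 3.58.1 (R 4.3.3) in 1 fit of 5 group means with a mean-variance trend, 5 residual degrees of freedom, two-sided tests and Benjamini-Hochberg adjustment. The pseudocount understates changes of low genes. The fit was tested on simulated data. The members, lists and tests were chosen with earlier results of these data known. All 10 members are named. From the lists, genes called in SE against pre-SE are named, or else the gene that differed most. Gene positions are from GENCODE vM1 (mm9), and figures were made with matplotlib 3.10.9. Alternatives tried were no filter, a filter of 1 CPM in 2 libraries, pseudocounts of 0.01 and 1, median-of-ratios rescaling, a replicate block, a fit of the groups compared, single mice left out and, added after the data were seen, libraries with high *Ttr* left out.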

Additional observations from a re-analysis of the deposited data

Results flagged for a closer look

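By the direct test of SE 2 days against SE 6 h mice (n = 2 per group), 2 pathway genes differed between the times. Of the 10 metallothionein and Nrf2 genes 0 did. Among the 63 pathway rows 1 was called higher and 1 lower, where 3.14% and 1.11% of all genes tested were. *Maff* was lower at 2 days than at 6 h by a logFC of −2.19 ± 0.48 (limma adjusted p = 0.034), and both SE 2 days mice were below both SE 6 h mice. *G6pdx*, the entry enzyme of the pentose phosphate pathway that supplies NADPH, was higher at 2 days by 1.36 ± 0.33 (adjusted p = 0.047). It was named after its values were seen, and stood at 22.11 and 25.89 CPM before SE, 18.51 and 12.61 at 6 h and 42.44 and 36.3 at 2 days. Without any 1 of the 4 mice (replicate 1 or 2 of SE 6 h, replicate 1 or 2 of SE 2 days) neither was called, with adjusted p of 0.131 to 0.171 for *Maff* and 0.0925 to 0.219 for *G6pdx*. Groups of 2 mice are too small for a test of single outlying mice.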

How the results depend on the processing

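With 2 mice per group, the calls rest on a spread shared over all genes, and 1 mouse often decided them. Leaving out any single mouse left 1 in its group, and fewer of the 10 genes and of all genes were called higher at 6 h. Without SE + LEV 2 days replicate 2, more of the 10 genes and of all genes were called higher in SE + LEV 2 days against pre-SE mice. The same held for those called lower in SE + LEV 2 days against SE + LEV 6 h mice. A fit of only the groups compared gave 3 of the 10 genes higher at 2 days, where 999 of all genes tested were, beside 803 in the main fit. In SE 2 days against SE 6 h mice it gave 1 lower, where 210 of all genes were. Median-of-ratios rescaling also gave 1 lower there, where 218 were, beside 176 in the main fit. Without the libraries with high *Ttr*, a fit with fewer samples, the number called higher was 0 at 6 h and 2 at 2 days, and the logFC at 6 h turned to −0.27 for *Mt3* and −0.018 for *Gclc*. Uncalled values whose sign turned as single mice were left out were, at 6 h, *Mt3* (−0.35 to 0.83), *Nqo1* (−0.13 to 0.58), *Gclc* (−0.41 to 0.99) and *Gclm* (−0.11 to 0.27), and at 2 days *Gclc* (−1.09 to 0.30), *Gclm* (−0.055 to 0.34) and *Slc7a11* (−0.13 to 0.80). For LEV against SE they were, at 6 h, *Mt1* (−0.82 to 0.21), *Mt2* (−0.97 to 0.40), *Mt3* (−0.49 to 0.68), *Nqo1* (−0.34 to 0.37), *Gclm* (−0.26 to 0.041) and *Slc7a11* (−0.42 to 0.057), and at 2 days *Mt1* (−1.02 to 0.40), *Mt2* (−2.0 to 0.25), *Nqo1* (−0.058 to 0.78), *Gclc* (−0.55 to 1.85), *Gclm* (−0.26 to 0.13), *Srxn1* (−0.69 to 0.22), *Txnrd1* (−0.49 to 0.12) and *Slc7a11* (−0.16 to 0.93). The LEV difference also turned for *Nqo1* at 6 h under median-of-ratios rescaling (−0.039) and, without the libraries with high *Ttr*, for *Slc7a11* at 6 h (0.0081) and *Srxn1* at 2 days (0.025). Other pseudocounts and filters changed no call of the 10 genes, and with a pseudocount of 1 *Mafk* and *Lcn2* at 6 h were not called (adjusted p = 0.0602 and 0.0724), nor was *G6pdx* between the times with 0.01 or 1 (0.0518 and 0.054) or under median-of-ratios rescaling (0.0761). The causes of these changes were not tested.

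Mice with the same replicate number are different animals, and their deviations had correlations across genes of −0.44 to 0.34. With the replicate block, *Slc7a11* at 6 h was not called (adjusted p = 0.0506), *Hmox1* was called in SE + LEV 2 days against pre-SE mice (0.0372), which made 1 gene called there, *Gpx1* at 2 days was not called (0.0508) and *Txn1* was (0.0413). The planned count tests were not run. The tag totals were recovered by matching all values of a library, within a tolerance equal to the rounding of the CPM, whereas the low values alone, checked separately, did not give whole tags in every library. *Nqo1*, with 22 to 137 tags per library, is limited by depth.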
